A study of Homo sapiens with 43 samples.

Results

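The unfolded protein response and the integrated stress response were followed through 44 genes, named by a list of symbols and kept where a symbol stood in all 4 deposited expression tables with a mean of at least 10 normalised counts in each. All 44 listed genes met that rule, of 11565 genes in the series that did. They comprise 16 ER chaperones and folding enzymes, 4 genes of ER-associated degradation, 4 sensors and factors of the unfolded protein response, and 20 genes of the ATF4 type. The ATF4-type genes are 9 regulators and stress effectors, 5 enzymes of amino acid and one-carbon synthesis, 3 amino acid transporters and 3 aminoacyl-tRNA synthetases.

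RNA was sequenced from the human cancer lines H2087 (lung) and HCC1954 (breast), each as the parental line and as latency-competent derivatives (LCC), which the labels describe as derived from the line and isolated from organs negative by bioluminescence imaging (BLI). Subconfluent cells were grown for 48 h in mitogen-low medium (MLM) or in mitogen-rich medium (MRM). In H2087 the groups were LCC in MLM and LCC in MRM (6 libraries each, 1 from each of the derivatives LCC1 to LCC6) and parental cells in MLM and parental cells in MRM (2 libraries each). In HCC1954 they were LCC in MLM and LCC in MRM (4 libraries each, 2 from the derivative LCC1 and 2 from LCC2) and parental cells in MLM and parental cells in MRM (3 libraries each). The labels of H2087 list a further parental sample in MLM, and the series lists 12 chromatin immunoprecipitation or input samples; these were not analysed here. What either medium contains, and which organ each derivative came from, is not given in the sources used here. Nothing says that libraries of a group came from separate cultures, so p-values measure only the spread between these samples, which may be technical.

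Cells answer misfolded protein in the endoplasmic reticulum (ER) through 3 membrane sensors: IRE1 (gene ERN1), which splices XBP1 mRNA, ATF6, which is cleaved to release a transcription factor, and PERK (gene EIF2AK3), a kinase of eIF2alpha. The spliced XBP1 and cleaved ATF6 proteins raise transcription of ER chaperones, disulfide isomerases and degradation factors. Phosphorylated eIF2alpha, which kinases sensing amino acid shortage, haem shortage or double-stranded RNA also produce, lowers general translation while favouring that of ATF4. The ATF4 protein induces enzymes of amino acid synthesis, amino acid transporters, tRNA synthetases and the effectors DDIT3 (CHOP), TRIB3 and CHAC1. Much of this control acts on splicing, cleavage and translation, which the level of an mRNA does not record.

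The ATF6/XBP1 type and the ATF4 type were set by the gene list, and each is linked to short promoter elements. The promoters of the members were therefore read from RefSeq (GRCh38.p14), from 250 bases before to 50 bases after each start. Most promoters of either type held no match to the elements searched. Promoters were matched for 41 of the 44 genes; PDIA3, SHMT2 and GARS were not matched. The ER stress element, searched as CCAAT and CCACG with 9 bases between them on both strands, lay in 7 of 19 chaperone and degradation genes (HSPA5, HSP90B1, CALR, CANX, PDIA6, CRELD2 and ERO1LB), in 1 of 4 sensor and factor genes (XBP1) and in 0 of 18 ATF4-type genes, against 0.0916% of all 27305 genes with a promoter. The unfolded protein response element, searched as TGACGTGG, lay in HYOU1 among the members and in 0.927% of all genes. The C/EBP-ATF response element, searched as TGATGNAA, lay in 6 of 18 ATF4-type genes (ATF3, CHAC1, ASNS, SLC3A2, SLC7A1 and AARS), in 1 of 19 chaperone and degradation genes (HERPUD1) and in 4.46% of all genes. The last letters of the unfolded protein response element, CGTGG, are the reverse complement of the end of the ER stress element, so these motifs can overlap, and in the members no match of one overlapped a match of another. A match describes letters and is not a measured binding site. Stretches of 12 members that hold 1 of these elements are shown so that the letters can be compared, including that of HERPUD1, a degradation gene whose match is to the C/EBP-ATF response element. They run 5′ to 3′ along the gene's strand, with the fixed letters of the motif in capitals (the reverse complement where it lies on the other strand).
HSPA5, chr9:125241383-125241417, minus strand: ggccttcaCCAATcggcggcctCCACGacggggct
CALR, chr19:12938376-12938410, plus strand: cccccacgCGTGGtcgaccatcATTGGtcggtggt
CANX, chr5:179698770-179698804, plus strand: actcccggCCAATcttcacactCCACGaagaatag
PDIA6, chr2:10812845-10812879, minus strand: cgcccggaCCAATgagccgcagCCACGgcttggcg
CRELD2, chr22:49918546-49918580, plus strand: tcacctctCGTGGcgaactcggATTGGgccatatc
XBP1, chr22:28800595-28800629, minus strand: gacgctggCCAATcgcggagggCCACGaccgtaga
HYOU1, chr11:119057378-119057401, minus strand: tggccccgTGACGTGGtccaatcc
HERPUD1, chr16:56931958-56931981, plus strand: gcggcgggTTgCATCAgcccgtgc
ATF3, chr1:212565208-212565231, plus strand: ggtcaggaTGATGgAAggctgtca
CHAC1, chr15:40953254-40953277, plus strand: ccctgccgTTgCATCActcctgcc
ASNS, chr7:97872461-97872484, minus strand: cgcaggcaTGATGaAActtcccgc
AARS, chr16:70289678-70289701, minus strand: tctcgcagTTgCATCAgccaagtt

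The libraries set several limits before any result. A value below is a deposited normalised count, the reads of a gene divided by the size factor of its library. Depth moved with the medium: H2087 libraries held 44.6 to 55.7 M reads in MLM and 12.1 to 20.8 M in MRM, while HCC1954 libraries held 24.9 to 28.1 M in MLM and 28.8 to 44.7 M in MRM, so medium and depth cannot be told apart. The 6 epithelial markers were all present and summed to between 117632 and 457899 normalised counts in H2087 and between 137501 and 399663 in HCC1954. The breast and ERBB2 markers summed to 203773 or more in each HCC1954 library, against 7627 or less in each H2087 library. In H2087 the lung identity markers summed to 675 to 1545 in MLM and 1563 to 4622 in MRM for LCC, and to 974 to 991 in MLM and 4516 to 4752 in MRM for parental cells. Fibroblast markers in H2087 summed to 259 to 548 in MLM and 454 to 926 in MRM for LCC, and to 302 to 347 in MLM and 645 to 659 in MRM for parental cells. Blood markers summed to 17.9 to 35.7 in MLM and 47.7 to 254 in MRM for LCC, with CD79A alone at up to 154 in MRM, and to 17.2 to 22.3 in MLM and 113 to 119 in MRM for parental cells. In H2087 parental cells in MRM the fibroblast markers COL1A2, DCN and LUM and the blood marker PTPRC were at 0. In the same libraries other markers of these lists were present. The fibroblast markers COL1A1 and PDGFRB stood at 584 and 553 and at 74.3 and 89.8, and the blood marker CD14 at 94.9 and 94.5. Endothelial markers summed to between 41.0 and 301 in H2087 and between 708 and 1428 in HCC1954. Fibroblast markers in HCC1954 summed to up to 1116, in LCC in MLM. The part of these markers in the results was not tested. The chi-square statistic of read counts between replicate libraries, divided by its degrees of freedom, was 1.90 to 7.57 for most pairs, but 115 between the HCC1954 LCC1 libraries in MRM, and 62.9 and 63.1 between Parental 3 and the other HCC1954 parental libraries in MLM. Results that rest on LCC1 2 in MRM or Parental 3 in MLM are therefore given with and without both, called the libraries that stood apart. Between the H2087 derivatives LCC5 and LCC6 the same statistic was 6.93 in MRM, as low as between replicate libraries, and 55.7 in MLM. The other pairs of H2087 derivatives in MRM gave 25.9 to 111. Whether LCC5 and LCC6 in MRM count as 2 separate derivatives was not tested. In bulk RNA, fewer cells of a kind and less RNA per cell cannot be told apart.

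In H2087, both cell types had lower levels of nearly the whole set in MLM than in MRM. In parental cells 34 of 44 genes were called lower and 0 higher, against 17.9% of all 12535 genes tested called lower (a call is a Benjamini-Hochberg adjusted p under 0.05 from limma on log2 of the value plus 1, two-sided). In LCC 39 were called lower and 0 higher, against 18.9% of all genes. All 20 chaperone and degradation genes fell in both cell types, with a median log2 change of -0.98 in LCC and -1.47 in parental cells, beside a median of 0.01 and 0.04 over all genes. Of the ATF4-type genes 15 of 20 fell in LCC (median -0.70) and 10 of 20 in parental cells (median -0.94). Every parental library in MLM lay below every parental library in MRM for 44 of 44 genes, as for 41.2% of all genes, and the 6 LCC libraries in MLM all lay below the 6 in MRM for 24 of 44, against 9.35%.

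**Figure D1:**
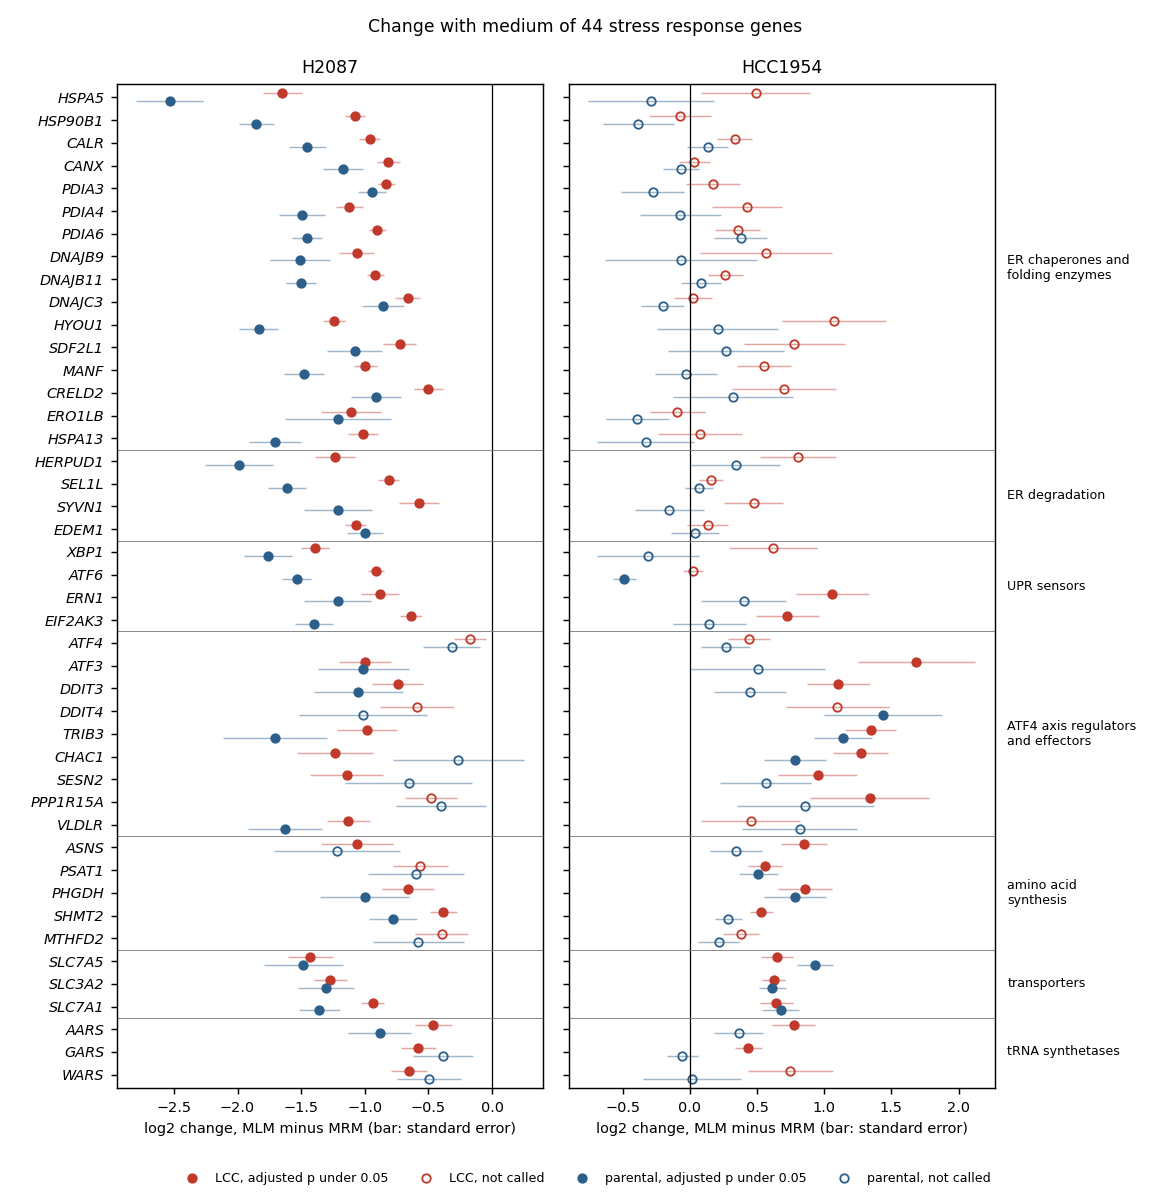
Log2 change in MLM relative to MRM for each of the 44 genes, with its standard error, in H2087 and HCC1954, for LCC and for parental cells; filled points have an adjusted p under 0.05. In H2087 the chaperone and degradation genes all lie below 0, with medians of -0.98 in LCC and -1.47 in parental cells, while in HCC1954 the filled points above 0 are mostly ATF4-type genes.

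The central ER chaperone HSPA5 (BiP), which binds unfolded chains and holds the sensors inactive, had the largest change of the 20 chaperone and degradation genes in both cell types. It ranged from 23241 to 30259 normalised counts (median 27957) in LCC in MLM, against 53539 to 117978 (median 91230) in LCC in MRM. Parental cells held 22740 and 23305 in MLM, against 145285 and 122119 in MRM. The groups did not overlap in either cell type, and HSPA5 fell by 1.65 ± 0.15 on the log2 scale in LCC (SE; 0.319 of the MRM level; adjusted p = 1.93e-06, limma) and by 2.53 ± 0.26 in parental cells (0.173 of the MRM level; adjusted p = 7.72e-06, limma). HSP90B1 (GRP94), the HSP90 of the ER, lay between 29392 and 39132 in LCC in MLM, against 61543 to 77339 in MRM. It stood at 24996 and 24893 in parental cells in MLM, against 94323 and 85933 in MRM, and its log2 change was -1.08 ± 0.08 in LCC and -1.85 ± 0.13 in parental cells. HYOU1 (GRP170), a nucleotide exchange factor for BiP, lay between 12959 and 16704 in LCC in MLM, against 30581 to 41213 in MRM (log2 change -1.24 ± 0.09 in LCC and -1.83 ± 0.15 in parental cells).

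The disulfide isomerases and the lectin chaperones, which fold glycoproteins, also fell in both cell types, by less than HSPA5. PDIA4 lay between 7559 and 9936 in LCC in MLM, against 14538 to 23990 in MRM, with a log2 change of -1.12 ± 0.10 in LCC and -1.49 ± 0.18 in parental cells. The isomerase PDIA6 changed by -0.90 ± 0.07 and -1.46 ± 0.12, and PDIA3 by -0.83 ± 0.06 and -0.94 ± 0.11. Calreticulin (CALR) and calnexin (CANX) are the lectin chaperones of the ER. CALR lay between 19152 and 26288 in LCC in MLM, against 37414 to 48801 in MRM, and changed by -0.96 ± 0.08 in LCC and -1.45 ± 0.14 in parental cells. CANX changed by -0.82 ± 0.09 in LCC and -1.17 ± 0.15 in parental cells. For these 5 genes no LCC library in MLM reached the lowest in MRM.

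The J-domain co-chaperones, which hand clients to BiP, behaved alike in sign. DNAJB9 (ERdj4), which represses IRE1, lay between 321 and 435 in LCC in MLM, against 559 to 987 in MRM. In parental cells it stood at 389 and 362 in MLM, against 1216 and 938 in MRM, so that neither cell type overlapped (log2 change -1.06 ± 0.14 in LCC and -1.51 ± 0.24 in parental cells). DNAJB11 changed by -0.92 ± 0.07 and -1.50 ± 0.12, and DNAJC3 (P58IPK), an inhibitor of PERK, by -0.66 ± 0.10 and -0.86 ± 0.17. MANF, a secreted ER stress protein, changed by -1.00 ± 0.09 and -1.48 ± 0.16, and HSPA13 by -1.02 ± 0.12 and -1.71 ± 0.21. The smallest LCC change of the chaperones was that of CRELD2, at 835 to 1224 in MLM against 1005 to 1583 in MRM, whose groups overlapped (-0.50 ± 0.11 in LCC and -0.91 ± 0.20 in parental cells). The LCC groups also overlapped for SDF2L1 (-0.73 ± 0.13) and for the oxidase ERO1LB (-1.11 ± 0.24), which held only 48.0 to 84.9 in MLM and 61.6 to 177 in MRM. All 16 genes of this kind were called in both cell types, but in parental cells ERO1LB lost its call (-1.21 ± 0.41) without any of 3 parental libraries, with limma adjusted p between 0.0926 and 0.207. Those libraries were Parental 1 and 2 in MLM and Parental 1 in MRM.

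The degradation genes, which return misfolded proteins to the cytosol, all fell. HERPUD1, a membrane component of the retrotranslocation complex, lay between 2448 and 2830 in LCC in MLM, against 3783 to 8021 in MRM. It stood at 2128 and 2192 in parental cells in MLM, against 9122 and 8026 in MRM (log2 change -1.23 ± 0.15 in LCC and -1.99 ± 0.27 in parental cells, with no overlap). SEL1L, the partner of the ubiquitin ligase SYVN1 (HRD1), changed by -0.81 ± 0.09 and -1.61 ± 0.15. SYVN1 itself lay between 1672 and 2334 in LCC in MLM, against 1894 to 4152 in MRM, which overlapped (-0.58 ± 0.16 in LCC and -1.21 ± 0.27 in parental cells). EDEM1, which directs mannose-trimmed glycoproteins to degradation, changed by -1.07 ± 0.08 in LCC and -1.00 ± 0.14 in parental cells.

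The 4 sensors and factors were lower too, with a median log2 change of -0.90 in LCC and -1.47 in parental cells. XBP1 lay between 2487 and 3418 in LCC in MLM, against 5406 to 9332 in MRM, and at 2417 and 2452 in parental cells in MLM, against 8806 and 7740 in MRM. Neither cell type overlapped, and XBP1 fell by 1.39 ± 0.11 in LCC (adjusted p = 5.04e-07, limma) and by 1.76 ± 0.19 in parental cells (adjusted p = 1.02e-05, limma); gene counts do not separate the spliced from the unspliced mRNA. ATF6 changed by -0.91 ± 0.07 and -1.53 ± 0.11, and ERN1 by -0.88 ± 0.15 and -1.21 ± 0.26. EIF2AK3 lay between 1238 and 1427 in LCC in MLM, against 1623 to 2626 in MRM, and at 912 and 934 in parental cells in MLM, against 2540 and 2335 in MRM. It fell in both, by 0.64 ± 0.09 in LCC and by 1.40 ± 0.15 in parental cells.

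**Figure D2:**
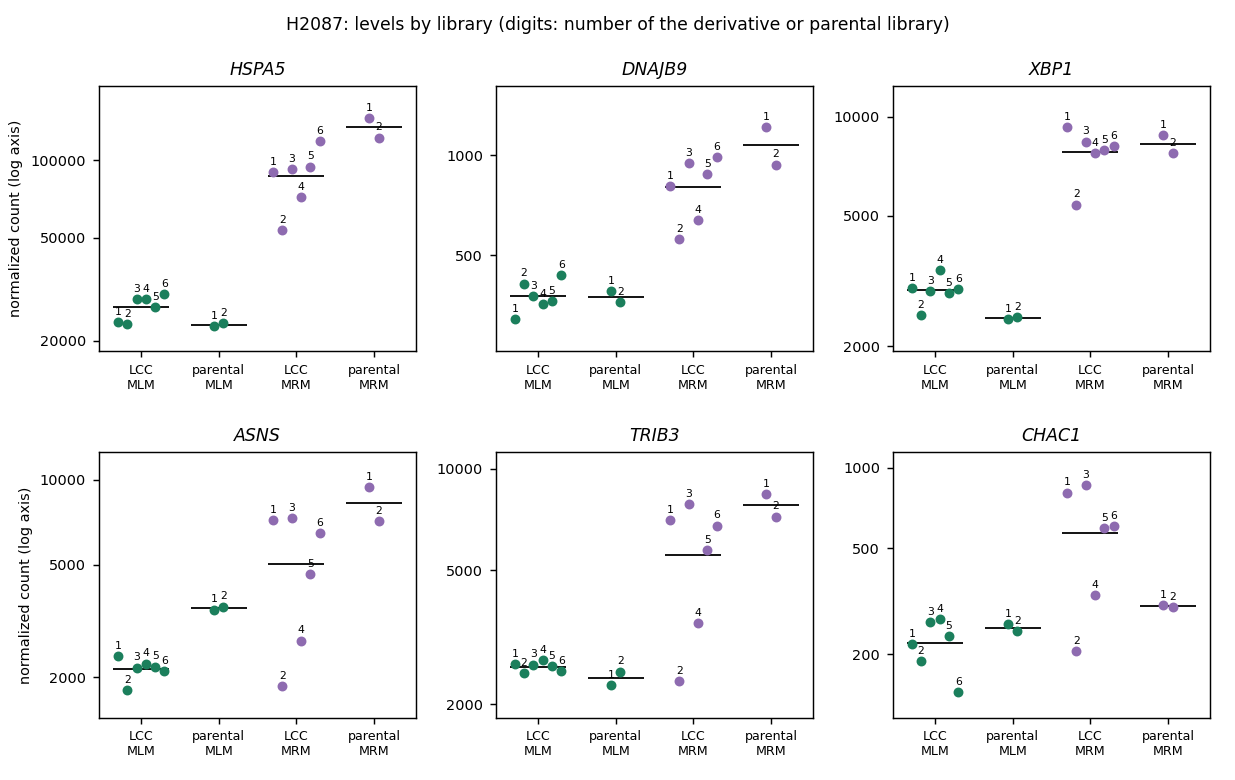
Normalised counts of HSPA5, DNAJB9, XBP1, ASNS, TRIB3 and CHAC1 in each H2087 library, by cell type and medium, on log axes, with 1 point per library and a line at the group mean. The MLM libraries form tight groups below MRM for HSPA5, DNAJB9 and XBP1, while for ASNS, TRIB3 and CHAC1 the LCC libraries in MRM spread from near the MLM level upward (ASNS from 1864 to 7303).

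Among the ATF4-type genes of H2087, ATF4 mRNA itself was not called. It lay between 11002 and 13004 in LCC in MLM, against 9741 to 18294 in MRM (log2 change -0.17 ± 0.13, adjusted p = 0.317, limma), and at 10761 and 11081 in parental cells in MLM, against 13743 and 13471 in MRM (-0.32 ± 0.22, adjusted p = 0.279, limma). The amino acid transporters showed the clearest change. SLC7A5 (LAT1), which imports leucine, lay between 15831 and 26706 in LCC in MLM, against 31459 to 72763 in MRM, and at 23184 and 24349 in parental cells in MLM, against 70236 and 62820 in MRM (-1.43 ± 0.18 and -1.48 ± 0.31). Its heavy chain SLC3A2 changed by -1.27 ± 0.13 and -1.31 ± 0.22, and the arginine and lysine transporter SLC7A1 by -0.94 ± 0.09 and -1.36 ± 0.16. For all 3 transporters the media did not overlap in either cell type.

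The stress effectors of ATF4 fell on average but with overlapping LCC groups. TRIB3, a pseudokinase that feeds back on ATF4, lay between 2470 and 2698 in LCC in MLM, against 2346 to 7851 in MRM (median 6260). In parental cells it stood at 2279 and 2498 in MLM, against 8409 and 7215 in MRM, and it fell by 0.98 ± 0.24 in LCC (adjusted p = 0.0046, limma) and by 1.71 ± 0.41 in parental cells (adjusted p = 0.00453, limma). CHAC1, which degrades glutathione, lay between 145 and 270 in LCC in MLM, against 206 to 858 in MRM (-1.23 ± 0.30, adjusted p = 0.00464, limma). In parental cells CHAC1 stood at 259 and 244 in MLM, against 305 and 300 in MRM, and was not called (-0.27 ± 0.52, adjusted p = 0.714, limma). DDIT3 (CHOP), a transcription factor linked to cell death under lasting stress, lay between 1258 and 1897 in LCC in MLM, against 1487 to 3652 in MRM (-0.74 ± 0.20, adjusted p = 0.00994, limma). In parental cells it stood at 1339 and 1371 in MLM, against 2998 and 2628 in MRM (-1.05 ± 0.35, adjusted p = 0.0287, limma). The neighbouring genes of DDIT3 on the chromosome had median log2 changes of -0.32 in LCC and -0.95 in parental cells. Their part was not tested. ATF3 changed by -1.00 ± 0.21 and -1.01 ± 0.36, VLDLR by -1.13 ± 0.17 and -1.63 ± 0.29, and the stress sensor SESN2 by -1.14 ± 0.29 in LCC, with -0.66 ± 0.50 not called in parental cells. PPP1R15A (GADD34), which restores eIF2alpha, and the mTORC1 inhibitor DDIT4 were called in neither (-0.48 ± 0.20 and -0.59 ± 0.29 in LCC, -0.40 ± 0.35 and -1.02 ± 0.50 in parental cells). In parental cells DDIT3 and ATF3 each lost the call without any 1 of the 4 parental libraries, with limma adjusted p up to 0.14 and 0.22.

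Of the ATF4-type lists, synthesis enzymes and synthetases moved least by median. Their medians were -0.57 and -0.58 in LCC, and -0.78 and -0.50 in parental cells. Single regulators, ATF4 among them, moved less. ASNS, which makes asparagine, lay between 1803 and 2373 in LCC in MLM, against 1864 to 7303 in MRM (median 5557), and fell by 1.06 ± 0.29 (adjusted p = 0.0092, limma). In parental cells it stood at 3473 and 3558 in MLM, against 9391 and 7151 in MRM, and just missed the threshold at -1.22 ± 0.50 (adjusted p = 0.0649, limma). The serine pathway enzyme PHGDH changed by -0.66 ± 0.20 in LCC and -1.00 ± 0.35 in parental cells, and the mitochondrial SHMT2 by -0.38 ± 0.11 and -0.78 ± 0.19. PSAT1 (-0.57 ± 0.22 in LCC and -0.60 ± 0.37 in parental cells) and MTHFD2 (-0.40 ± 0.21 and -0.58 ± 0.36) were called in neither. Of the synthetases, which charge tRNAs, AARS was called in both cell types (-0.46 ± 0.14 and -0.88 ± 0.25), and GARS (-0.58 ± 0.14) and WARS (-0.65 ± 0.14) in LCC. In parental cells PHGDH lost its call without any 1 of the 4 libraries, and AARS without any of 3 (adjusted p up to 0.168 and 0.0814, limma); the parental count was 29 without Parental 1 in MLM, Parental 2 in MLM or Parental 1 in MRM. Each such fit leaves 1 parental library in a medium, which is then taken to vary like the other groups.

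Among the H2087 derivatives, LCC2 and LCC4 held the lowest levels of ATF4-type genes in MRM, as a median over the 20 genes. Paired by derivative, the median log2 change of the 20 ATF4-type genes was -0.14 in LCC2 and -0.25 in LCC4, against -1.06 in LCC1, -1.05 in LCC3, -0.93 in LCC5 and -0.99 in LCC6. The chaperone and degradation medians lay together, from -1.11 in LCC1 to -0.82 in LCC2, and the medians of all genes between 0.00 and 0.03. LCC2 was the lowest of the 6 MRM libraries for 15 of 20 ATF4-type genes, and LCC4 for the other 5. CHAC1 in MRM stood at 206 in LCC2 and 332 in LCC4, against 595 to 858 in the remaining derivatives, and ASNS at 1864 and 2698, against 4639 to 7303. The transporters in LCC4 changed within the range of the other derivatives, by -1.51 for SLC7A5, -1.44 for SLC3A2 and -1.10 for SLC7A1. With 1 library for each derivative and medium, differences between derivatives have no replicate check.

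**Figure D3:**
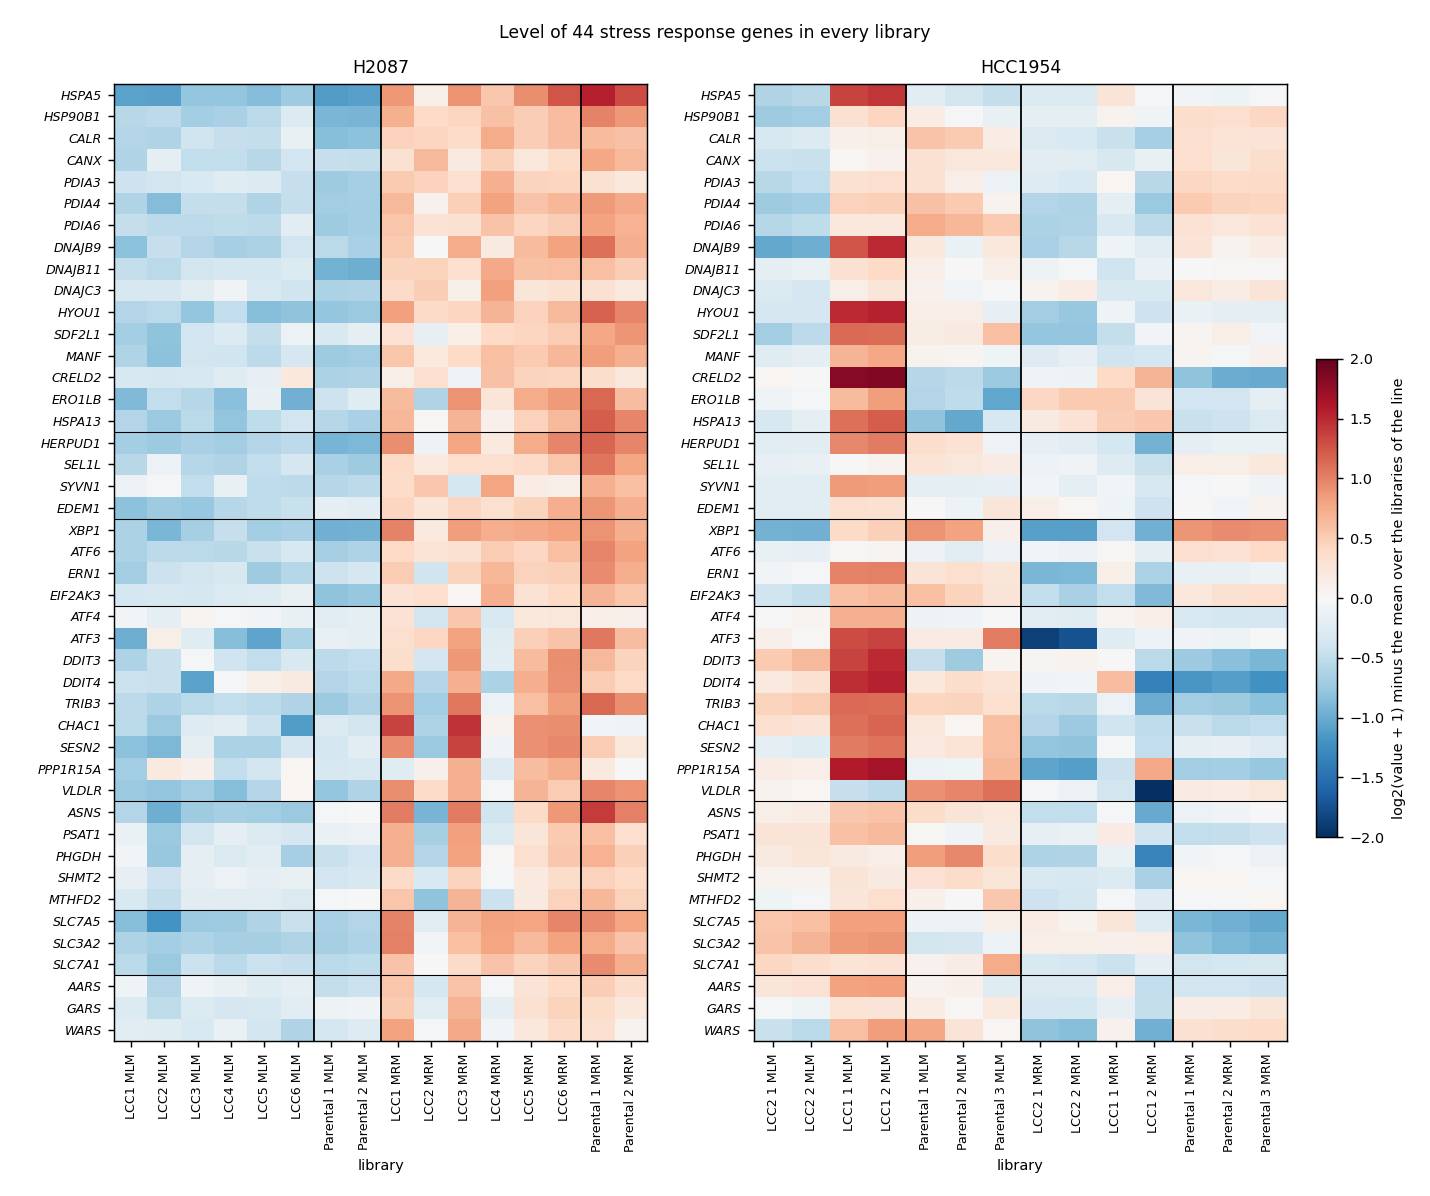
Level of each of the 44 genes in each of the 30 libraries, as log2 of the normalised count plus 1 minus the gene's mean over the libraries of that line, limited to between -2 and 2. In H2087 the MLM columns are low for the chaperone rows in all derivatives, and in HCC1954 the LCC1 columns in MLM are high for nearly all rows.

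The fall in MLM was smaller in H2087 LCC than in parental cells for 7 of 44 genes, against 4.08% of all genes called in that direction, and larger for 0, against 6.64%. The difference of the log2 changes, LCC minus parental, was 0.78 ± 0.16 for HSP90B1 (adjusted p = 0.00615, limma), 0.55 ± 0.14 for PDIA6, 0.59 ± 0.14 for DNAJB11, 0.59 ± 0.18 for HYOU1 (adjusted p = 0.0454, limma), 0.80 ± 0.17 for SEL1L, 0.62 ± 0.13 for ATF6 and 0.76 ± 0.17 for EIF2AK3. HSPA5 had the largest difference of the chaperones, at 0.89 ± 0.30, and was not called (adjusted p = 0.0747, limma). No ATF4-type gene was called. These calls rest on the few parental libraries: 0 were called without Parental 1 in MRM, and 2 without Parental 1 or without Parental 2 in MLM. With the derivative as a replicate block 15 genes were called.

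Comparing H2087 LCC directly with parental cells within a medium gave few calls, and they share libraries with the changes above. In MLM 5 genes were higher in LCC (4.99% of all genes) and 1 lower (8.52%). The higher ones were DNAJB11 (0.57 ± 0.10, adjusted p = 0.00128, limma), EIF2AK3 (0.49 ± 0.12), HSP90B1 (0.39 ± 0.11), CALR (0.39 ± 0.12) and PDIA3 (0.34 ± 0.09). DNAJB11, a soluble BiP co-chaperone, lay between 5268 and 6332 in LCC, against 3937 and 3887 in parental cells. Its neighbouring genes on the chromosome had a median log2 difference of 0.34, the highest neighbour median among the members. EDEM1 was lower in LCC, at 1576 to 2043 against 2453 and 2414 (-0.45 ± 0.12), where its 17 neighbouring genes on the chromosome had a median of -0.42. Without Parental 1 or Parental 2 in MLM only DNAJB11 was called.

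In MRM 0 genes were higher in H2087 LCC (12.1% of all genes) and 10 lower (10.1%). They were HSPA5 (-0.66 ± 0.21, adjusted p = 0.039, limma), HSPA13 (-0.67 ± 0.17), SEL1L (-0.57 ± 0.12), SDF2L1 (-0.56 ± 0.18), HYOU1 (-0.51 ± 0.13), ATF6 (-0.48 ± 0.09, adjusted p = 0.00231, limma), SLC7A1 (-0.42 ± 0.13), HSP90B1 (-0.39 ± 0.11), EDEM1 (-0.37 ± 0.12) and PDIA6 (-0.32 ± 0.10). ATF6 lay between 4691 and 5890 in LCC, against 7705 and 6827 in parental cells, and HSPA5 between 53539 and 117978, against 145285 and 122119. The chaperone and degradation median was -0.38, and the ATF4-type median -0.19. None of the 10 was called without Parental 1 in MRM, 4 were called without Parental 2 in MRM, and 3 when only the groups in MRM entered the fit. Epithelial markers also differed, summing to 160710 to 457899 in LCC and 117632 to 130133 in parental cells in MRM; their part was not tested.

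In HCC1954 the calls ran upward in MLM and lay almost entirely among the ATF4-type genes, with no chaperone or degradation gene called in either cell type. In LCC 17 of 44 genes were called higher in MLM (12.1% of all 15397 genes tested) and 0 lower (10.9%). In parental cells 8 were called higher (13.4% of all genes) and 1 lower (11.1%). The ATF4-type genes made up 15 of the 17 in LCC, with a median log2 change of 0.76, and all 8 in parental cells, with a median of 0.54. The all-gene medians were both 0.02. Of the 20 chaperone and degradation genes 0 were called in either cell type (medians 0.35 in LCC and -0.05 in parental cells). All MLM libraries lay above all MRM libraries for 13 of 20 ATF4-type genes in LCC (11.7% of all genes) and for 17 of 20 in parental cells (31.5%). Without Parental 3 in MLM and LCC1 2 in MRM the counts higher were 16 in LCC and 9 in parental cells.

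The stress effectors carried the largest changes in HCC1954. TRIB3 stood at 14828 and 14604 (LCC1) and 9212 and 9658 (LCC2) in MLM, against 6266 and 3411 (LCC1) and 4678 and 4621 (LCC2) in MRM. In parental cells it stood at 9131, 9227 and 8431 in MLM, against 4189, 4135 and 3840 in MRM. TRIB3 rose in both, by 1.35 ± 0.19 in LCC (adjusted p = 0.000454, limma) and by 1.14 ± 0.22 in parental cells (adjusted p = 0.00285, limma), with no overlap. CHAC1 stood at 1531, 1598, 891 and 856 in LCC in MLM (LCC1 and then LCC2), against 539, 500, 473 and 429 in MRM, and at 831, 733 and 1081 in parental cells in MLM, against 522, 491 and 504 in MRM. It rose by 1.27 ± 0.20 in LCC and by 0.78 ± 0.23 in parental cells. DDIT3 stood at 1384, 1518, 781 and 848 in LCC in MLM, against 540, 373, 564 and 569 in MRM (1.10 ± 0.23, adjusted p = 0.00538, limma). In parental cells DDIT3 stood at 391, 329 and 559 in MLM, against 327, 302 and 286 in MRM, and was not called (0.45 ± 0.27, adjusted p = 0.251, limma). ATF3 rose by 1.69 ± 0.44 in LCC, where PPP1R15A (1.34 ± 0.44) and SESN2 (0.95 ± 0.29) were also called. ATF4 mRNA was called in neither cell type (0.44 ± 0.16, adjusted p = 0.0615, and 0.27 ± 0.18, adjusted p = 0.31, limma).

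Transporters and amino acid enzymes of HCC1954 were higher as well. SLC7A5 stood at 75990, 76184, 63410 and 65630 in LCC in MLM, against 51077, 35996, 47990 and 45261 in MRM (0.65 ± 0.12). In parental cells it stood at 40024, 39622 and 46930 in MLM, against 22983, 22066 and 21190 in MRM (0.93 ± 0.13). SLC3A2 (0.62 ± 0.09 in LCC and 0.61 ± 0.10 in parental cells) and SLC7A1 (0.64 ± 0.12 and 0.68 ± 0.14) rose by nearly the same amount. ASNS stood at 4495, 4630, 3377 and 3435 in LCC in MLM, against 3025, 1546, 2220 and 2214 in MRM (0.85 ± 0.17, adjusted p = 0.00385, limma), and changed by 0.34 ± 0.20 in parental cells (adjusted p = 0.225, limma). PHGDH (0.85 ± 0.20 in LCC and 0.78 ± 0.23 in parental cells) and PSAT1 (0.56 ± 0.13 and 0.51 ± 0.15) were called in both cell types. SHMT2 (0.53 ± 0.09), AARS (0.77 ± 0.16) and GARS (0.44 ± 0.10) were called in LCC, and DDIT4 (1.44 ± 0.44) in parental cells. Outside the ATF4 type, ERN1 (1.06 ± 0.27) and EIF2AK3 (0.73 ± 0.24) were higher in LCC. In parental cells ATF6 was lower, at 2339, 2180 and 2326 in MLM against 3187, 3075 and 3332 in MRM (-0.49 ± 0.09, adjusted p = 0.00195, limma).

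Several of these HCC1954 calls depended on single libraries. In parental cells CHAC1, PHGDH and PSAT1 each lost the call without any of 5 of the 6 parental libraries and DDIT4 without any of the 6 (adjusted p up to 0.0938, 0.108, 0.0722 and 0.0921, limma), and 5 genes were called in all without Parental 1 in MLM or without Parental 1, 2 or 3 in MRM. In LCC the calls of EIF2AK3 (11 libraries), PPP1R15A (10) and SESN2 (5) were lost without 1 library, with limma adjusted p up to 0.116, 0.118 and 0.094, and 26 genes were called without LCC2 1 in MLM. When only the groups compared entered the fit, 11 genes were called in LCC and 23 in parental cells, of which 19 were higher and 4 lower. The medium change did not differ between LCC and parental cells for any member by limma (0 called, 0.156% of all genes called; 2 at an unadjusted p under 0.05; lowest adjusted p 0.111, for ATF6). The edgeR test on recovered reads called 0 and DESeq2 1.

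The same medium contrast had opposite signs in the 2 lines for several genes called in both. The values here are those of genes whose groups overlapped in neither line. In LCC, H2087 and HCC1954 gave -1.43 and 0.65 for SLC7A5, -1.27 and 0.62 for SLC3A2, -0.94 and 0.64 for SLC7A1, -0.58 and 0.44 for GARS, and -0.64 and 0.73 for EIF2AK3. In parental cells they gave -1.71 and 1.14 for TRIB3, -1.48 and 0.93 for SLC7A5, -1.31 and 0.61 for SLC3A2, -1.36 and 0.68 for SLC7A1, and -1.00 and 0.78 for PHGDH. TRIB3, CHAC1, DDIT3, ATF3, SESN2, ASNS, PHGDH, SHMT2, AARS and ERN1 were also called in LCC of both lines with opposite signs. Their groups overlapped in H2087 LCC. The lines were normalised separately, so the difference between them was not tested. Depth ran the other way too, with the deeper libraries in MLM in H2087 and in MRM in HCC1954.

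**Figure D4:**
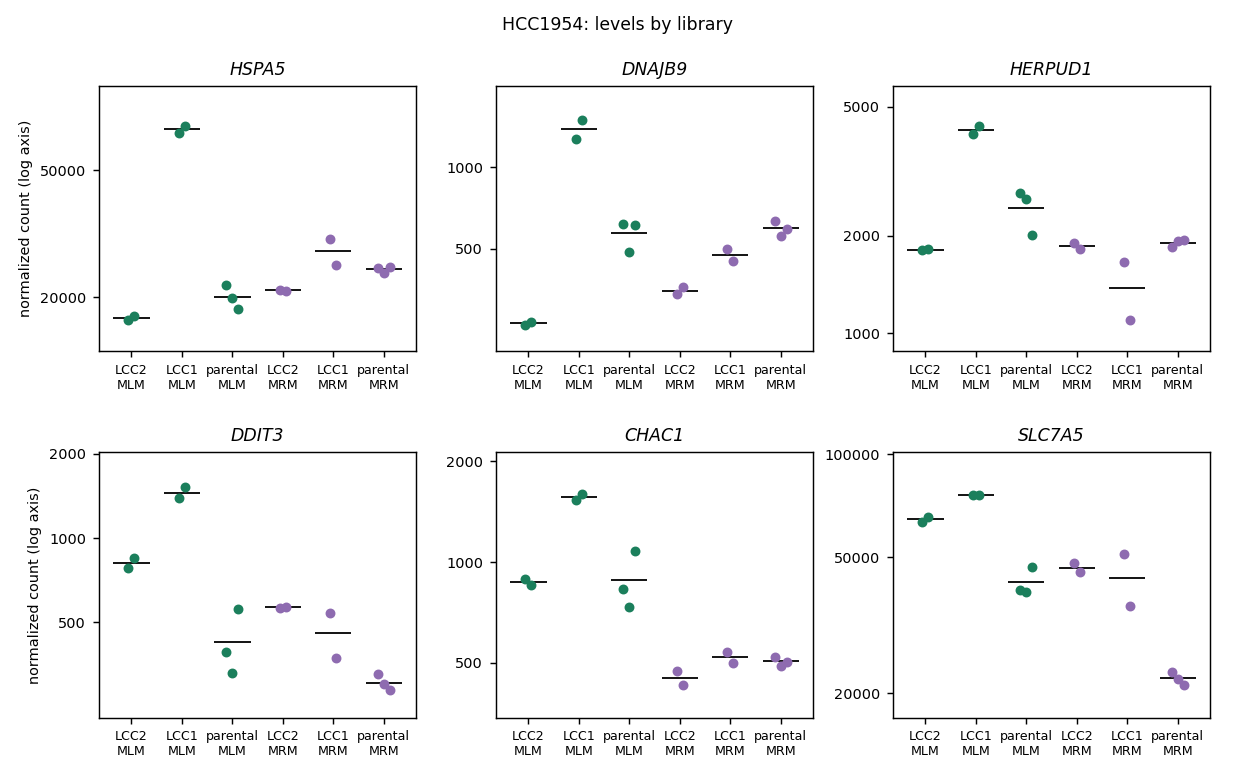
Normalised counts of HSPA5, DNAJB9, HERPUD1, DDIT3, CHAC1 and SLC7A5 in each HCC1954 library, by derivative or parental line and medium, on log axes, with 1 point per library and a line at the group mean. For HSPA5 the LCC1 libraries in MLM stand at 65308 and 68876, apart from all other libraries, which lie at 30550 or below.

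The absence of chaperone calls in HCC1954 LCC as 1 group went with a wide split between its derivatives. In MLM, LCC2 was lower than LCC1 for 33 of 44 genes (21.1% of all genes called lower) and higher for 0 (20.1%). Of the chaperone and degradation genes 19 of 20 were lower in LCC2, with a median log2 difference of -1.00, beside -0.01 over all genes; the exception was SEL1L (-0.19 ± 0.08, adjusted p = 0.0589, limma). Of the sensors 3 of 4 were lower (median -1.06), and of the ATF4-type genes 11 of 20 (median -0.48), among them none of the 3 transporters or the 5 synthesis enzymes. Both LCC2 libraries lay below both LCC1 libraries for 41 of 44 genes, as for 41.9% of all genes.

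HSPA5 stood at 16942 and 17449 in LCC2 in MLM, against 65308 and 68876 in LCC1, a difference of -1.96 ± 0.10 (0.256 of the LCC1 level; adjusted p = 5.16e-07, limma). DNAJB9 stood at 262 and 268 in LCC2, against 1269 and 1495 in LCC1 (-2.37 ± 0.13, adjusted p = 6.79e-07, limma), which was the largest difference of the set. The parental libraries in MLM lay between, at 18374 to 21915 for HSPA5 and 486 to 615 for DNAJB9, nearer to LCC2. HYOU1 stood at 4575 and 4566 in LCC2, against 16140 and 16652 in LCC1 (-1.84 ± 0.12), CRELD2 at 1056 and 1024, against 3617 and 3676 (-1.81 ± 0.11), and SDF2L1 at 896 and 1019, against 3187 and 3160 (-1.73 ± 0.16). SDF2L1 forms a complex with ERdj co-chaperones. HERPUD1 stood at 1800 and 1825 in LCC2, against 4113 and 4345 in LCC1 (-1.22 ± 0.17), and HSPA13 at 581 and 639, against 1567 and 1680 (-1.41 ± 0.18). XBP1 differed by -1.38 ± 0.23, EIF2AK3 by -1.07 ± 0.14 and ERN1 by -1.05 ± 0.18. MANF differed by -0.95 ± 0.08 although its chromosomal neighbours had a median of 0.89, the highest neighbour median among the members. The lowest was that of SESN2, at -0.58. For 6 of 43 members the neighbour median lay closer to the member's own difference than to no difference.

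Of the ATF4-type genes PPP1R15A differed most between the derivatives in MLM, at 3924 and 3883 in LCC2, against 10651 and 11233 in LCC1 (-1.49 ± 0.32). SESN2 (-1.28 ± 0.14), ATF3 (-1.27 ± 0.22), DDIT4 (-1.26 ± 0.42), WARS (-1.21 ± 0.28), CHAC1 (-0.84 ± 0.14), DDIT3 (-0.83 ± 0.22) and TRIB3 (-0.64 ± 0.20) were lower too. ATF4 stood at 13209 and 13614 in LCC2, against 21320 and 21286 in LCC1 (-0.67 ± 0.06, adjusted p = 1.78e-05, limma). AARS, CALR, DDIT4, GARS and TRIB3 lost the call without any 1 of the 4 libraries, and DDIT3 without LCC1 2 or LCC2 1 (limma adjusted p up to 0.098, 0.097, 0.129, 0.103, 0.106 and 0.0704), where the lone library of a derivative is taken to vary like the other groups.

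In MRM the derivatives differed much less. LCC2 was lower for 10 genes (19.8% of all genes) and higher for 4 (18.1%), and the chaperone and degradation median was -0.01. The 10 lower lay near the share of all genes, and the 4 higher below it. The lower ones were ATF3 (-1.63 ± 0.22), PPP1R15A (-1.24 ± 0.32), ERN1, CRELD2 (-0.63 ± 0.11), SESN2, SDF2L1, HYOU1 (-0.48 ± 0.12), DNAJB9 (-0.44 ± 0.13), HSPA5 (-0.40 ± 0.10) and ATF4 (-0.33 ± 0.06). HSPA5 stood at 21142 and 20908 in LCC2 in MRM, against 30550 and 25156 in LCC1. VLDLR (1.20 ± 0.39), DNAJC3 (0.41 ± 0.07), EDEM1 (0.34 ± 0.12) and SEL1L (0.26 ± 0.08) were higher. These MRM counts depended on LCC1, whose libraries differed strongly from each other: 22 genes were called without LCC1 1, 5 without LCC2 1, 4 without LCC2 2, and 34 without LCC1 2 in MRM and Parental 3 in MLM, of which 8 were higher and 26 lower. With libraries scaled to their totals, 9 genes were higher and 6 lower, and only the groups in MRM in the fit gave 1.

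Within LCC1, 41 of 44 genes were higher in MLM than in MRM (17.2% of all genes) and 0 lower, and within LCC2 15 were higher (17.8%) and 6 lower (14.7%). In LCC1 all but ERO1LB of the 20 chaperone and degradation genes rose (median 0.65), as did 19 of 20 ATF4-type genes (median 0.94); ATF6 and VLDLR were the others not called. HSPA5 stood at 65308 and 68876 in MLM, against 30550 and 25156 in MRM (1.27 ± 0.10), DNAJB9 at 1269 and 1495, against 499 and 452 (1.53 ± 0.13), and HYOU1 at 16140 and 16652, against 5451 and 4324 (1.76 ± 0.12). HERPUD1 stood at 4113 and 4345 in MLM, against 1661 and 1101 in MRM (1.64 ± 0.17). Calls of CANX, HSP90B1, HSPA13, MTHFD2, PDIA3, PHGDH, SLC7A1 and WARS were lost without 1 library, LCC1 2 in MLM among them for each, with limma adjusted p up to 0.26. The LCC1 count was 41 without the libraries that stood apart as well, but only the LCC1 libraries in the fit gave 0 calls.

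In LCC2, 13 of 20 ATF4-type genes rose (median 0.51), while of the chaperone and degradation genes 1 rose and 6 fell (median -0.09). HSPA5 was lower in MLM there, at 16942 and 17449 against 21142 and 20908 in MRM (-0.29 ± 0.10, adjusted p = 0.047, limma), with HSP90B1 (-0.51 ± 0.09), ERO1LB (-0.53 ± 0.17), DNAJC3 (-0.42 ± 0.07), DNAJB9 (-0.40 ± 0.13) and CANX (-0.22 ± 0.07). HYOU1 was higher (0.39 ± 0.12). Over the 44 members, the 6 lower lay near the share of all genes (14.7%). Of the 21 calls in LCC2, 14 were lost without some library. Of the chaperones these were CANX (11 libraries), HSPA5 (10), ERO1LB (6), DNAJB9 (5) and HYOU1 (4). ATF3 (1.86 ± 0.22), TRIB3 (1.02 ± 0.20), CHAC1 (0.95 ± 0.14) and ATF4 (0.27 ± 0.06) were among the ATF4-type genes that rose. The LCC2 count fell to 8 without LCC2 1 in MLM, to 9 without LCC2 2 in MLM or LCC2 1 in MRM and to 7 without LCC2 2 in MRM. It was 33 without the libraries that stood apart and 35 with only the LCC2 libraries in the fit, and scaling to library totals gave 11 higher and 8 lower. With the replicate block the calls of HSPA5, ASNS, CANX, ERO1LB and GARS were lost (limma adjusted p of 0.0519 to 0.0916).

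The difference itself between the medium changes of LCC2 and LCC1 was called for 19 genes, all of them lower (2.64% of all genes), with 0 higher (2.66%), and 17 of the 19 were chaperone and degradation genes and the others ATF4 (-0.34 ± 0.09) and EIF2AK3 (-1.18 ± 0.19). It was -1.56 ± 0.14 for HSPA5 (adjusted p = 0.000474, limma), -1.94 ± 0.18 for DNAJB9 and -1.68 ± 0.24 for HERPUD1. Without 1 library the count was 10 to 12 for LCC1 1 in MLM (12), LCC1 2 in MLM (10), LCC2 1 in MLM (10), LCC2 2 in MLM (12), LCC2 1 in MRM (11) and LCC2 2 in MRM (10), and it was 37 without LCC1 1 in MRM. Without both libraries that stood apart 33 genes were called, 3 of them higher. With libraries of the same name paired as a replicate block 13 of the 19 were called, and ATF4, CANX, PDIA4, PDIA6, SDF2L1 and SEL1L were not (limma adjusted p of 0.0533 to 0.146). The test was added after the libraries had been examined, and it shares its libraries with the contrasts above.

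**Figure D5:**
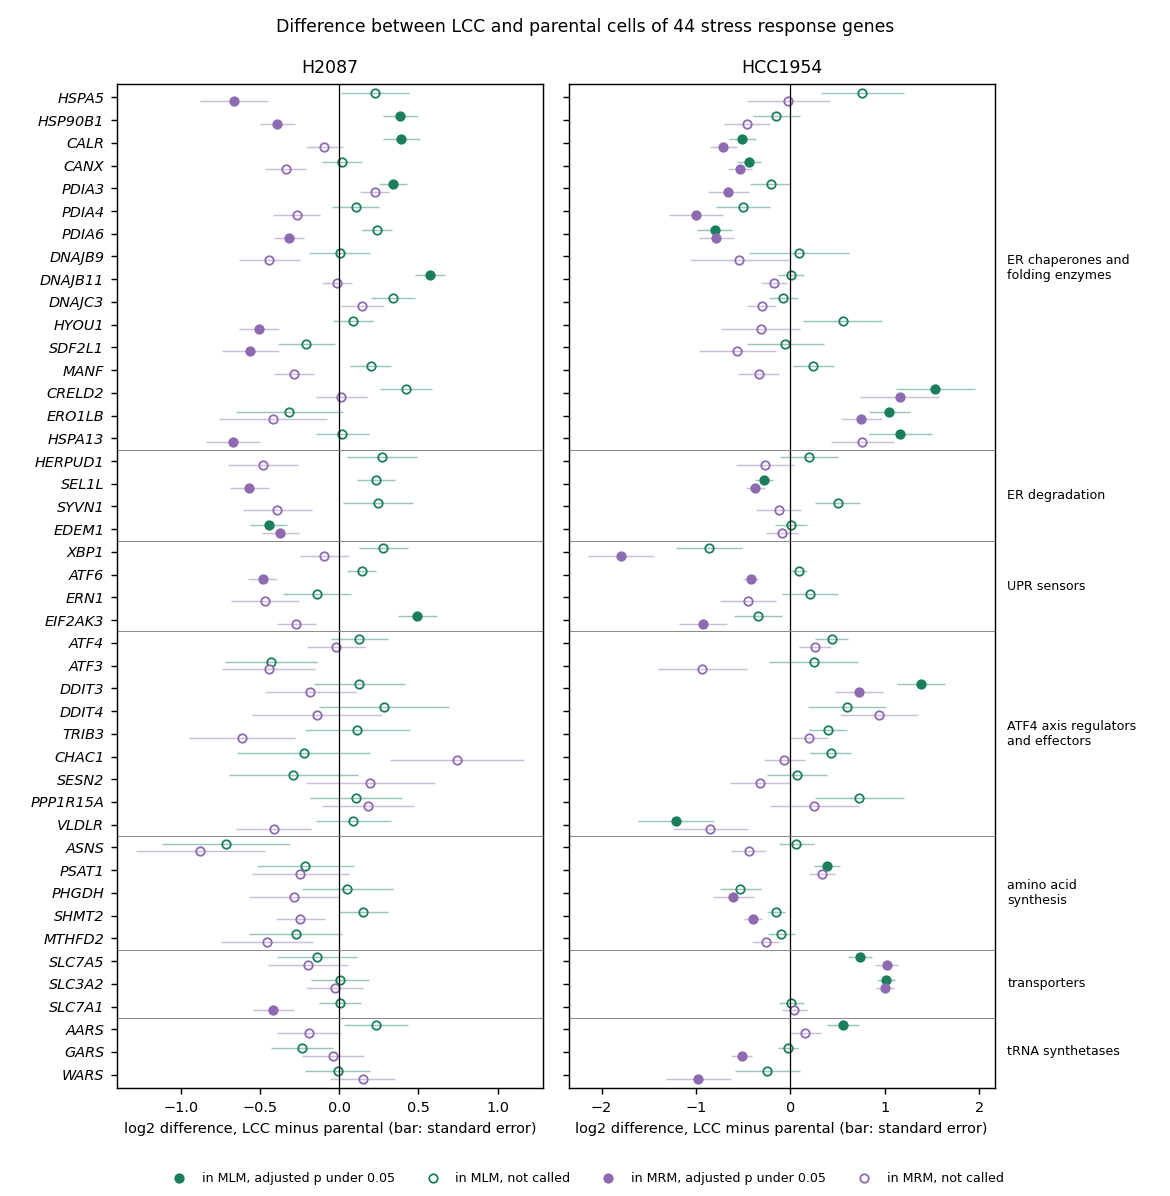
Log2 difference of LCC from parental cells for each of the 44 genes, with its standard error, in MLM (green) and MRM (purple), for H2087 and HCC1954; filled points have an adjusted p under 0.05. In HCC1954 SLC3A2 and SLC7A5 lie above 0 in both media (1.02 and 0.74 in MLM), and XBP1 lies at -1.79 in MRM.

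Between HCC1954 LCC as a group and parental cells, genes were called in both directions. In MLM 8 genes were higher (19.7% of all genes) and 5 lower (20.3%), and in MRM 5 were higher (20.4%) and 13 lower (20.2%). Only the 13 lower in MRM exceeded the share of all genes. The 8 higher in MLM lay near that share, and the 5 lower in MLM and 5 higher in MRM lay below it. The transporter pair was higher in LCC in both media. SLC3A2 stood at 40776, 41458, 33678 and 36105 in LCC in MLM, against 17594, 17908 and 20871 in parental cells, and at 24310, 24696, 24839 and 24503 in LCC in MRM, against 12980, 12137 and 11676 in parental cells. The log2 differences were 1.02 ± 0.09 in MLM (adjusted p = 6.76e-06, limma) and 1.00 ± 0.09 in MRM (adjusted p = 5.53e-06, limma), with no overlap. SLC7A5 was higher by 0.74 ± 0.13 in MLM and 1.02 ± 0.13 in MRM. DDIT3 was higher by 1.38 ± 0.25 in MLM and 0.73 ± 0.25 in MRM, where its chromosomal neighbours had medians of -0.42 and -0.40. CRELD2 was higher by 1.54 ± 0.42 and 1.16 ± 0.42, and its 20 neighbours had medians of 1.25 and 1.13, with 14 and 16 of them called higher. For 16 of 43 members in MLM and 11 in MRM, the neighbour median lay closer to the member's own difference than to no difference. ERO1LB (1.05 ± 0.22 and 0.75 ± 0.22) was called in both media, and HSPA13 (1.16 ± 0.34), AARS (0.56 ± 0.17) and PSAT1 (0.39 ± 0.14) in MLM.

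Among the genes lower in HCC1954 LCC, 4 were lower in both media: PDIA6 (-0.80 ± 0.18 in MLM and -0.78 ± 0.18 in MRM), CALR (-0.51 ± 0.14 and -0.71 ± 0.14), CANX (-0.44 ± 0.13 and -0.54 ± 0.13) and SEL1L (-0.28 ± 0.10 and -0.37 ± 0.10). CANX stood at 22615, 23490, 16430 and 16363 in LCC in MLM, against 27287, 25996 and 25701 in parental cells. VLDLR was lower in MLM (-1.21 ± 0.40). XBP1 stood at 6078, 4054, 3749 and 3731 in LCC in MRM, against 14613, 15318 and 14902 in parental cells (-1.79 ± 0.35, adjusted p = 0.00145, limma). In MLM, XBP1 ranged from 4081 to 11044 in LCC, against 14836, 13888 and 8483 in parental cells, and was not called (-0.86 ± 0.35, adjusted p = 0.0685, limma). PDIA4 (-1.00 ± 0.28), WARS (-0.98 ± 0.34), EIF2AK3 (-0.92 ± 0.25), PDIA3 (-0.66 ± 0.22), PHGDH (-0.60 ± 0.22), GARS (-0.52 ± 0.11), ATF6 (-0.42 ± 0.08) and SHMT2 (-0.40 ± 0.09) were lower in MRM.

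These HCC1954 counts moved with the processing and with single libraries. With libraries scaled to their totals, 12 genes were higher and 3 lower in MLM, and 9 higher and 10 lower in MRM. Without the libraries that stood apart 8 were higher and 7 lower in MLM, and 6 higher and 11 lower in MRM. Without Parental 1 in MLM 7 genes were called in MLM, and without Parental 2 in MLM 8. In MLM the calls of PSAT1 (7 libraries), SEL1L and VLDLR (5 each), AARS (3), CALR and HSPA13 (2 each) and CANX (1) were lost without 1 library, with limma adjusted p up to 0.138, 0.118, 0.077, 0.0828, 0.0619, 0.0669 and 0.0569. In MRM those of CRELD2 (8 libraries), PHGDH (7), DDIT3 and WARS (6 each), PDIA3 (5) and ERO1LB (2) were lost, with limma adjusted p up to 0.11, 0.108, 0.106, 0.0926, 0.0784 and 0.0542. Epithelial markers summed to 184608 to 193930 in LCC and 356712 to 399663 in parental cells in MLM, and their part was not tested.

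The other genes of both pathways, listed beside the members, gave a wider view. Of 45 further ER folding, translocation and degradation genes tested in H2087, 36 were lower (18.9% of all genes) and 3 higher (18.5%) in MLM in LCC (median -0.70), and 35 lower (17.9%) and 1 higher (20.1%) in parental cells (median -0.87). The degradation factor DERL3 changed most, by -1.39 ± 0.17 in LCC and -2.65 ± 0.30 in parental cells, and the isomerase PDIA5 by -1.05 ± 0.07 and -1.93 ± 0.13. SEC61G, a subunit of the translocation channel, was higher in MLM (0.60 ± 0.10 and 0.85 ± 0.17). Of 37 further ATF4-type genes, set beside the same shares of all genes, 26 were lower and 1 higher in LCC (median -0.61), and 21 lower and 2 higher in parental cells (median -0.78). The stress cytokine GDF15 (-2.85 ± 0.41 and -6.10 ± 0.71) and INHBE, an activin subunit (-2.87 ± 0.38 and -5.62 ± 0.65), had the largest changes, while the transcription factor ATF5 was higher (1.04 ± 0.13 and 1.19 ± 0.23). Of 14 genes for eIF2alpha kinases, eIF2 and eIF2B, 2 were higher and 1 lower in LCC, and 2 higher and 2 lower in parental cells, with the same shares of all genes as above; PPP1R15B, a constitutive eIF2alpha phosphatase subunit, was lower in both (-0.83 and -1.24).

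In HCC1954, 20 of the 37 further ATF4-type genes were higher in MLM in LCC (12.1% of all genes) and 0 lower (10.9%). In parental cells 5 of the 37 were higher and 2 lower, near the shares of all genes called (13.4% higher and 11.1% lower). GDF15 (2.02 ± 0.32) rose in LCC, and SLC1A4, a serine and alanine transporter, in LCC and parental cells (1.33 ± 0.14 and 1.28 ± 0.16). Of the further ER genes 7 of 45 were higher in LCC, near the 12.1% of all genes, and 1 lower (10.9%); TXNDC5, an ER thioredoxin, was higher by 3.21 ± 0.18 in LCC and by 3.56 ± 0.20 in parental cells. Between the derivatives in MLM, 34 of the 45 were lower in LCC2 (21.1% of all genes) and 2 higher (20.1%), led by SEC24D, a coat protein of ER export (-2.49), and 15 of the 37 ATF4-type genes were lower and 1 higher. Compared with parental cells, HCC1954 LCC had 4 of the 45 higher (19.7% of all genes) and 12 lower (20.3%) in MLM, and 4 higher (20.4%) and 18 lower (20.2%) in MRM. The ER stress transducer CREB3L1 was among the lower ones (-3.08 in MLM and -2.56 in MRM), as was the peptidyl-prolyl isomerase FKBP11 (-2.27 and -1.75).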

How the data were processed

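The authors deposited, per the file headers, 1 normalised signal value for each gene and library, in a table for each line and medium. The submitters' processing notes list the tools Bowtie2 2.2.4, SAMtools, HTSeq 0.6.1p1, DESeq2 1.8.1, HOMER 4.2 and R 3.1.2, with the builds hg19 and GRCh37, and give neither the role nor the order of any; whether counting used strand is not given in the sources used here. In each library 100% of the values were whole multiples of the worth of 1 read (tolerance 0.01 reads), so reads were recovered from them. Median-of-ratios size factors recomputed over both media of a line were within 8.08e-12 (H2087) and 3.35e-12 (HCC1954) of those recovered, against 0.874 and 0.26 when recomputed within 1 medium, so both media of a line share a scale.

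Genes with a mean of at least 10 were tested (12535 in H2087, 15397 in HCC1954) on log2 of the value plus 1 with limma 3.58.1 in R 4.3.3, two-sided, with a trended prior variance and all groups of a line in the fit; derivatives LCC1 and LCC2 of HCC1954 were separate groups for contrasts between them. A call needed a p under 0.05 after Benjamini-Hochberg adjustment over all genes tested. Log2 changes are those of log2(value + 1) and understate changes of low genes. The alternatives were a pseudocount of 10, no filter, library-total scaling, only the compared groups, a replicate block, each library left out, edgeR 4.0.16 on recovered reads, and DESeq2 1.42.0. In the medium comparisons edgeR called 2140 genes higher and 2484 lower in H2087 LCC, 2470 and 2259 in H2087 parental cells, 1703 and 1895 in HCC1954 LCC, and 1965 and 1815 in HCC1954 parental cells. The fits were tested on simulated data.

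Values are given for the members called in the medium comparison of both cell types of a line, for those with the largest called changes without overlap, and for HSPA5, XBP1, ATF4, DDIT3, ASNS, TRIB3 and CHAC1; the heat map holds the rest. The members and lists were chosen with earlier results of these data known. Libraries of 1 derivative in both media share its name, and their deviations correlated in H2087 (0.411 to 0.756). LCC6 was not set apart from LCC5 this way. LCC6 in MLM correlated at 0.411 with LCC6 in MRM and at 0.406 with LCC5 in MRM, and LCC5 in MLM at 0.487 with LCC6 in MRM. Parental numbers are only names. Neighbouring genes come from RefSeq's order on GRCh38.p14.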

Additional observations from a re-analysis of the deposited data

Results flagged for a closer look

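A library far from the other libraries of its group was found in 15 of 176 checks, each of 1 gene in 1 group of 4 to 6 libraries. A single check gives a flag by chance in about 5% of cases. The checks share libraries and are not independent, and the HCC1954 groups each hold 2 derivatives, so 5% is no expected share here. In H2087 LCC in MLM, LCC6 stood above the other derivatives for HSP90B1 (39132 normalised counts), PDIA6 (16482), CRELD2 (1224) and VLDLR (410). In the same group LCC2 stood below the others for PDIA4 (7559), SHMT2 (9087), MTHFD2 (5701) and AARS (16028). In H2087 LCC in MRM, LCC2 stood below the others for ERN1 (239), SLC7A5 (31459) and SLC7A1 (8650). In HCC1954 LCC in MRM, LCC1 1 stood above the others for XBP1 (6078) and WARS (8298), and LCC1 2 stood below them for DDIT3 (373) and SHMT2 (4004).

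The change with medium differed between cell types or derivatives for 26 results by limma's test of the difference, at an adjusted p under 0.05. In H2087, LCC minus parental, the difference of log2 changes was 0.78 for HSP90B1, 0.55 for PDIA6, 0.59 for DNAJB11, 0.59 for HYOU1, 0.80 for SEL1L, 0.62 for ATF6 and 0.76 for EIF2AK3. In HCC1954, LCC2 minus LCC1, it was -1.56 for HSPA5, -0.87 for HSP90B1, -0.50 for CANX, -1.02 for PDIA4, -0.54 for PDIA6, -1.94 for DNAJB9, -0.70 for DNAJB11, -0.89 for DNAJC3, -1.36 for HYOU1, -1.21 for SDF2L1, -1.12 for MANF, -1.17 for CRELD2, -1.14 for HSPA13, -1.68 for HERPUD1, -0.46 for SEL1L, -1.13 for SYVN1, -0.87 for EDEM1, -1.18 for EIF2AK3 and -0.34 for ATF4.

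The lines moved in opposite directions in 11 further results, each past the threshold and with no overlap of groups in either line. Genes called in both lines whose groups overlapped were not flagged. The difference between lines was not tested. For the medium change in LCC, H2087 had -0.64 for EIF2AK3, -1.43 for SLC7A5, -1.27 for SLC3A2, -0.94 for SLC7A1 and -0.58 for GARS, where HCC1954 was above 0. For the medium change in parental cells, H2087 had -1.71 for TRIB3, -1.00 for PHGDH, -1.48 for SLC7A5, -1.31 for SLC3A2 and -1.36 for SLC7A1. For LCC against parental cells in MLM, CALR had 0.39 in H2087 and -0.51 in HCC1954.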

How the results depend on the processing

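Of 281 called gene results, none changed direction in 6311 recomputations under the alternatives, and 572 recomputations no longer passed the threshold. Many recomputations left out a library outside the comparison. There the log2 change cannot move, so a change of direction was not possible. With only the compared groups in the fit, 3 genes were called between LCC and parental cells of H2087 in MRM (10 with all groups of the line). For the medium, 23 were called in HCC1954 parental cells (9), 11 in HCC1954 LCC (17), 0 in LCC1 (41) and 35 in LCC2 (21). For LCC2 against LCC1 in MRM 1 was called (14). These fits hold fewer libraries and take the spread from the compared groups alone, and the counts moved both ways. The chi-square statistic per degree of freedom between the 2 LCC1 libraries was 115 in MRM and 3.64 in MLM. Between the 2 LCC2 libraries it was 2.10 and 2.85. The cause of the changed counts was not tested further. Without Parental 3 in MLM and LCC1 2 in MRM, a choice made after seeing the data, 34 genes differed between LCC2 and LCC1 in MRM, 33 changed with the medium in LCC2, and 33 differed in that change between the derivatives. DESeq2 called 1 gene in the difference of medium changes between HCC1954 LCC and parental cells, where limma called 0.

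With a replicate block, in which libraries of the same derivative or number are paired, 15 genes were called in the H2087 difference of medium changes, against 7; counts elsewhere moved by less than 1.5 times, but 6 of 19 calls of the difference between LCC2 and LCC1 in their medium changes (13 left) and 5 of 21 for the medium in LCC2 were lost. Parental numbers correlated weakly between media (0.0515 in H2087, and 0.0183 to 0.116 in HCC1954) and share only a number, as do the libraries within 1 HCC1954 derivative (0.507 to 0.698 with the same number and 0.497 to 0.689 with the other).

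Leaving out each library in turn gave, in H2087, 39 to 42 genes for the medium in LCC, 29 to 35 in parental cells, 0 to 8 for their difference, 1 to 7 for LCC against parental cells in MLM and 0 to 11 in MRM. In HCC1954 it gave 14 to 26 for the medium in LCC, 5 to 11 in parental cells, 0 for their difference, 7 to 15 for LCC against parental cells in MLM and 12 to 18 in MRM. For the derivatives it gave 27 to 41 for LCC2 against LCC1 in MLM, 4 to 22 in MRM, 33 to 42 for the medium in LCC1, 7 to 27 in LCC2 and 10 to 37 for the difference of those changes. Scaling to library totals moved the median log2 change of all genes by over 0.1, to 0.11 for the medium in H2087 LCC and to 0.16 for LCC2 against LCC1 in MRM. Depth was lowest in H2087 in MRM, which limits the precision of its low genes.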
